A study of Mus musculus with 14 samples.

Results

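The globin switching and red cell genes are 9 genes that red cells or their precursors use, here followed through mouse lung development. By brightest probe set, the 3 embryonic globin genes among them fell 38.8-fold to 51.5-fold from embryonic day 12 (E12) to day 18 (E18). Over the same span Alas2, the haem synthesis enzyme of red cell precursors, rose 7.42-fold. The 9 genes (Hbb-y, Hbb-bh1, Hba-x, Hba-a1, Alas2, Slc4a1, Epor, Klf1 and Gata1) were taken by gene symbol in the platform annotation, out of 18193 genes that had a probe set with 1 symbol. Total RNA of pooled whole lungs of ICR mice, an outbred strain, had been hybridised to 14 whole-genome Affymetrix mouse arrays, 2 for each of 7 time points. The time points were embryonic days 12, 14, 16 and 18 (E12, E14, E16 and E18), postnatal days 2 and 10 (P2 and P10) and Adult, which the study takes at day 30. No animal was treated or genetically altered, and all arrays are labelled female. The number of lungs in a pool, and whether both arrays of a time point came from different pools, are not given in the sources used here, so each standard error and p measures only the spread between these arrays, which may be technical.

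Red cells carry haemoglobin, which pairs alpha-type with beta-type globin chains. The first, primitive red cells come from the yolk sac and use the embryonic chains of Hba-x (zeta, alpha type), Hbb-y (epsilon-y) and Hbb-bh1 (beta-h1), whereas the definitive red cells made in the fetal liver and later in bone marrow use adult alpha and beta chains, a change known as globin switching. The embryonic lung is not known as a site of red cell formation, and whole lungs hold the blood of their vessels. GATA1 and KLF1 are transcription factors of red cell precursors, and the erythropoietin receptor (Epor) keeps those precursors alive.

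Hbb-y and Hbb-bh1 lie side by side in the beta-globin cluster, and Hba-x and Hba-a1 are neighbours in the alpha-globin cluster, in the mouse assembly GRCm38.p6. The RefSeq table held the start of 7 of the 9 genes, all but Hbb-bh1 and Slc4a1. The 250 bases before the start are shown for Hbb-y and Hba-x, which fell, and for Alas2, which rose to E18. They are also shown for Hba-a1, which lies in the cluster of Hba-x. Capitals mark 2 motifs that textbooks tie to GATA1 and KLF1, on either strand: the GATA motif, spelled AGATAA with the variant spelling TGATAA, or ending in G as the spelling AGATAG with the variant spelling TGATAG, and the CACCC motif, spelled CCNCNCCC, in which N is any base. Each sequence is written along the strand of its gene.
Hbb-y, chr7:103853208-103853457, minus strand: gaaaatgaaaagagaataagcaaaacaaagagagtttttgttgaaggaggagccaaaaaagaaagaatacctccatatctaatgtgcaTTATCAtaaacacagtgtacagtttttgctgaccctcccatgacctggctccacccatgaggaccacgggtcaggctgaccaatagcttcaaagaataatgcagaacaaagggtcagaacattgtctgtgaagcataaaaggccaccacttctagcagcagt
Hba-x, chr11:32276350-32276599, plus strand: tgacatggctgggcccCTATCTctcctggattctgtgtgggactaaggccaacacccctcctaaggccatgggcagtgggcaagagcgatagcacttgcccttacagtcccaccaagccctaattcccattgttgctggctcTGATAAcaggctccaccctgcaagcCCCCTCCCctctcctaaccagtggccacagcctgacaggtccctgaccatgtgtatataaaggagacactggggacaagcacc
Hba-a1, chr11:32283422-32283671, plus strand: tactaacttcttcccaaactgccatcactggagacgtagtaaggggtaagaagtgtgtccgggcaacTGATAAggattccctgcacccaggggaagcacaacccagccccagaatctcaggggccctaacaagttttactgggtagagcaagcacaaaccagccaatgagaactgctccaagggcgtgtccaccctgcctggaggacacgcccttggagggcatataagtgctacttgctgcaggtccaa
Alas2, chrX:150547167-150547416, plus strand: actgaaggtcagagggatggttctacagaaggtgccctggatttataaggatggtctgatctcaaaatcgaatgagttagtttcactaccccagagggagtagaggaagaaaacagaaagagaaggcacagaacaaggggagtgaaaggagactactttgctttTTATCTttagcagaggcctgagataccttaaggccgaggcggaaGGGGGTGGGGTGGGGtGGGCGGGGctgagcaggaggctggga
Hbb-y held 1 GATA motif and no match to CCNCNCCC, Hba-x held 2 and 1, and Hba-a1 held 1 and none. Alas2 held 1 and 4, of which the matches to CCNCNCCC partly overlap. The letters CACCC alone also stand, unmarked, in the windows of Hbb-y, Hba-x and Hba-a1, since CCNCNCCC asks for further bases. A match need not hold these letters either, as with CCCCTCCC in Hba-x. Among the 7 genes a GATA motif stood in 6 windows, all but that of Gata1, and in 27.1% of all 27025 windows of the same length in the table. A match to CCNCNCCC stood in 4 of the 7 windows (Hba-x, Alas2, Epor and Gata1), against 45.6% of all. The letters CACCC alone were not counted, so a window without a match is not shown to lack them. The letters CCAAT, searched in the same way, stood in 3 of the 7 (Hbb-y, Hba-a1 and Klf1), against 34.5%. A match is a run of letters and not a measured binding site.

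Expression values are log2 signals, so that a difference of 1 is a 2-fold difference. The lowest value of any probe set was 2.53 and the highest 14.99, with medians per array from 6.55 to 6.63. Each gene was read from its brightest probe set (by the mean of all 14 arrays), and a probe set was called dynamic when its adjusted p of the F test over the time points was under 0.05, its highest time-point mean (Max) above 7 and the difference between its highest and lowest mean (Range) above 1.2. Arrays went against their labels or stood apart in 2 ways. Xist, which is expressed from the inactive X chromosome, lay between 6.88 and 7.41 on the 4 arrays of P2 and P10 and between 11.97 and 13.32 on the other 10, whereas the Y-linked gene Eif2s3y lay between 8.35 and 8.61 at P2 and P10. Eif2s3y was also present at E12, E14 and E18 and on replicate 1 of E16 (between 6.95 and 8.10), against 3.13 on replicate 2 of E16 and 3.60 and 2.86 in Adult. Only the Adult arrays and replicate 2 of E16 thus match the label female, and the 2 arrays of E16 differ in their mix of sexes. From E18 to P2 and from P10 to Adult the mix of sexes changed together with age, and the 2 cannot be told apart there. Replicate 1 of E16 held more heart muscle transcripts than replicate 2 (Myl2 at 12.63 against 8.84, and at most 6.27 on the arrays of other time points). The mean over 8 heart muscle genes was 10.93 and 8.22 on the 2 arrays of E16. It was also 9.18 and 8.96 at P2 and 9.06 and 9.15 in Adult, against 6.52 and 6.59 at E12, so heart transcripts were not confined to E16. Of 9 measured genes of the liver, which makes red cells in the fetus, none reached a time-point mean above that of Apoa1 at E12 (6.67). Of the 9 red cell genes 5 were dynamic (Hbb-y, Hbb-bh1, Hba-x, Alas2 and Slc4a1), and 26.7% of all genes were.

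Hbb-y, the epsilon-y chain, fell at each step from E14 to P2 (limma, adjusted p over all probe sets). Its values were 14.31 and 14.24 at E12, 13.87 and 13.79 at E14, 10.19 and 11.45 at E16, 8.65 and 8.53 at E18, 5.53 and 6.66 at P2, 5.04 and 4.78 at P10, and 4.24 and 3.69 in Adult (replicates 1 and 2). Each time point lay below the one before it with no overlap, and the replicates lay far apart at E16 and P2. At E12 the probe set stood at the 99.97th percentile of an array and in Adult at the 7.49th, so the folds are limited by the range of the array. The difference was -0.45 (SE 0.36, adjusted p = 0.655) from E12 to E14. It was -3.01 (8.05-fold lower, adjusted p = 9.72e-05) from E14 to E16, -2.23 (4.70-fold lower, adjusted p = 0.000208) from E16 to E18 and -2.49 (5.63-fold lower, adjusted p = 0.000414) from E18 to P2. The steps to P10 (-1.19, adjusted p = 0.0706) and to Adult (-0.95, adjusted p = 0.0721) did not pass. The former passed without either E16 array (adjusted p = 0.0214) or without replicate 1 of P2 (0.028), and the latter without any 1 of the arrays of E16 (0.0216) or P2 (0.0345). Without replicate 1 of E16, highest in heart transcripts, the fall from E14 to E16 was 5.21-fold and that from E16 to E18 7.25-fold. Without replicate 2 of E16 they were 12.4-fold and 3.04-fold. The other 2 probe sets of the gene fell at the same 3 steps. One of them also passed at the steps to P10 (-1.21, adjusted p = 0.0437) and to Adult (-1.57, adjusted p = 0.0027). The other, which ended between 5.28 and 5.36 in Adult, fell 3.83-fold from E18 to Adult, where the brightest probe set fell 24.7-fold.

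Hbb-bh1, the beta-h1 chain, fell at each embryonic step and at none after E18. It gave 10.39 and 11.07 at E12, 9.01 and 8.51 at E14, 6.31 and 6.6 at E16, and 5.24 and 5.64 at E18, and from P2 to Adult all 6 arrays lay between 5.03 and 5.51. The 4 embryonic time points did not overlap, whereas E18 overlapped with the later arrays. The difference was -1.97 (3.91-fold lower, SE 0.24, adjusted p = 0.000615) from E12 to E14, -2.30 (4.93-fold lower, adjusted p = 2.79e-05) from E14 to E16 and -1.02 (2.03-fold lower, adjusted p = 0.00335) from E16 to E18. From E18 to Adult it was -0.13 (SE 0.24, adjusted p = 0.717), which changed sign without replicate 2 of E18 (0.07) or without replicate 2 of Adult (0.07). Both other probe sets of Hbb-bh1 fell at the same 3 steps, with adjusted p between 4.77e-06 and 0.00176. Their means went from 10.23 and 10.09 at E12 to 4.82 and 4.33 at E18, against 10.73 and 5.44 for the brightest.

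Hba-x, the zeta chain of the alpha cluster, lost most of its signal between E14 and E16. Its values were 12.38 and 12.26 at E12, 11.47 and 11.27 at E14, 7.64 and 8.33 at E16, and 6.91 and 7.17 at E18. At P2 both arrays gave 6.38, at P10 they gave 6.53 and 6.19, and in Adult 6.49 and 6.01. The embryonic time points lay apart from each other, and the 6 later arrays lay below E18 and overlapped among themselves. From E12 to E14 it fell by 0.95 (SE 0.21, adjusted p = 0.0219), a call that was lost without any 1 of the 4 arrays of those time points (adjusted p between 0.0572 and 0.219). From E14 to E16 the fall was 10.5-fold (adjusted p = 3.44e-07), and from E16 to E18 it was 1.92-fold (adjusted p = 0.00216), or 1.51-fold without replicate 2 of E16 (adjusted p = 0.0328). Without replicate 1 of E16 the falls were 8.21-fold and 2.45-fold. The step to P2 (-0.66, adjusted p = 0.0467) was lost without any 1 of the arrays of E12, E14, E18 or P2. From E18 to Adult the fall was 0.79 (adjusted p = 0.00861), and it was 0.55 without replicate 2 of Adult (adjusted p = 0.1) and did not pass without replicate 2 of E18 (adjusted p = 0.0727). The gene had 1 probe set, so no other could check it.

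**Figure D1:**
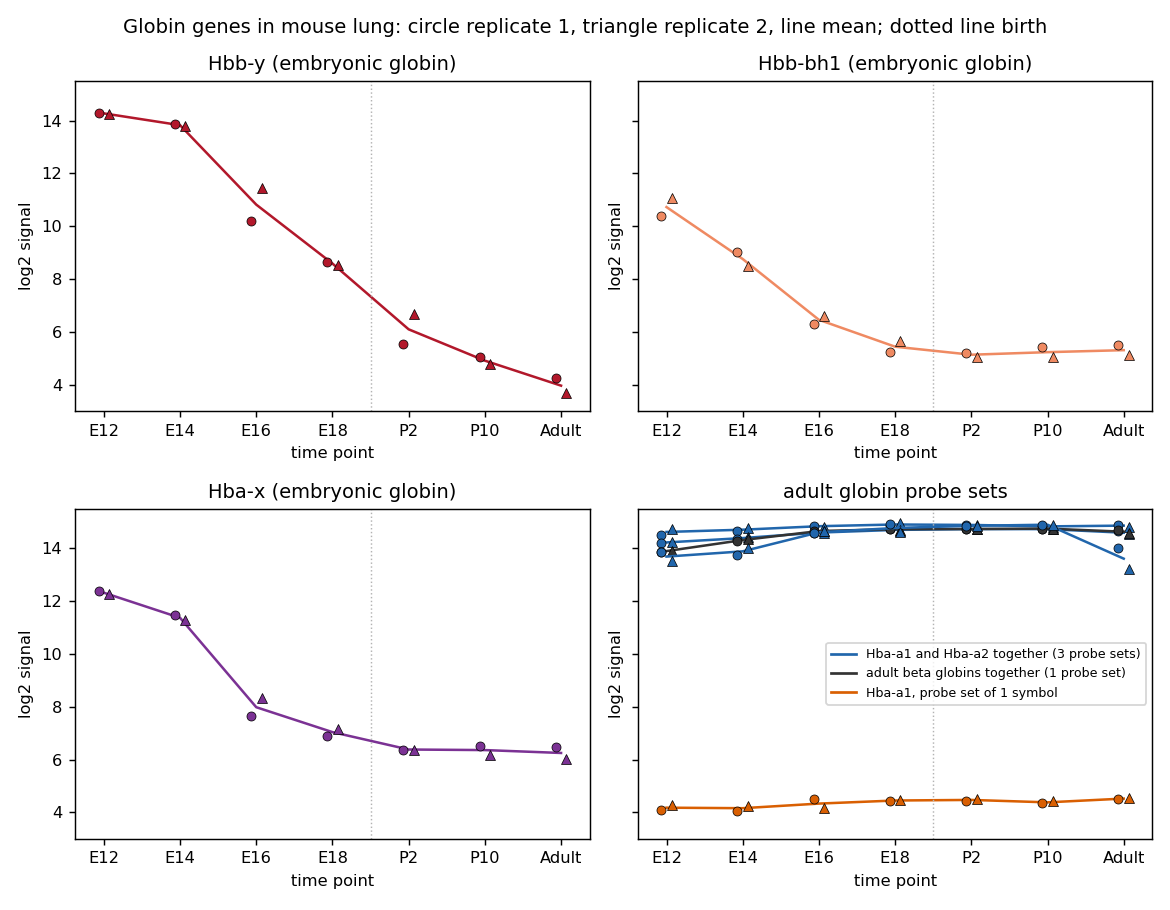
Expression values (log2 signal, vertical axis) of the embryonic globin genes and of the adult globin probe sets at the 7 time points, with 1 point for each array and a line through the means of the 2 arrays. Hbb-y runs from above 14 at E12 to about 4 in Adult, Hbb-bh1 and Hba-x level off from E18 or P2, and the probe sets shared by adult globin genes stay above 13.

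The 3 embryonic genes were compared with each other by their changes on the same array, a comparison chosen after the values had been seen. Over E12 to E18 as a whole the differences were -5.69 (SE 0.36, adjusted p = 1.37e-08) for Hbb-y, -5.29 (SE 0.24, adjusted p = 5.14e-10) for Hbb-bh1 and -5.28 (SE 0.21, adjusted p = 1.56e-10) for Hba-x. The difference between the changes of Hbb-bh1 and Hba-x was -0.01 (SE 0.21, adjusted p = 0.978), and that between Hba-x and Hbb-y was 0.41 (SE 0.27, adjusted p = 0.238). All these comparisons use the brightest probe set of each gene, which for Hbb-y went from 14.27 at E12 to 8.59 at E18. The dimmest probe set of Hbb-y went from 14.07 to 7.26, a larger fall, and was not compared with the other genes. Single steps differed between Hbb-bh1 and Hba-x. From E12 to E14 Hbb-bh1 fell by 1.02 more than Hba-x (SE 0.21, adjusted p = 0.0149), a call lost without replicate 2 of E12 (adjusted p = 0.125) or of E14 (adjusted p = 0.192), and from E14 to E16 Hba-x fell by 1.08 more than Hbb-bh1 (adjusted p = 0.0028), a call kept without each array in turn. Against Hbb-y, Hbb-bh1 fell by 1.52 more from E12 to E14 (SE 0.38, adjusted p = 0.047), which passed in only 4 of the 14 fits that left out 1 array. Hbb-y then lay near the highest value of the arrays, where its own fall may be understated, so no order is read from this difference. From E18 to P2 Hbb-y fell further than Hbb-bh1 by 2.19 (adjusted p = 0.00161) and further than Hba-x by 1.83 (adjusted p = 0.000498). The size of these gaps depends on the probe set of Hbb-y. Its brightest went from 8.59 to 6.10 over this step and another from 8.55 to 6.20, but the dimmest only from 7.26 to 5.93. Whether Hbb-bh1 and Hba-x had by then reached the lower limit of their probe sets was not tested.

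Hba-a1 encodes the adult alpha chain, and its values depend on which probe set is read. The only probe set with Hba-a1 as its 1 symbol gave values between 4.07 and 4.55 on all 14 arrays, from the 13.7th to the 19.7th percentile. The lowest array was an E14 array and the highest an Adult array, and the 2 Adult arrays lay above those of E12 and E14. It was not dynamic (adjusted p of the F test 0.0611), and Adult lay above E12 by 0.35 (SE 0.11, adjusted p = 0.0187), a call lost without replicate 1 of E12 (adjusted p = 0.147) or replicate 2 of Adult (adjusted p = 0.0828). The difference from E12 to E18 (0.27, adjusted p = 0.0647) passed without replicate 2 of E12 (adjusted p = 0.048) or without either E16 array (adjusted p = 0.0362). The 3 probe sets annotated to Hba-a1 and Hba-a2 together lay at the 99.6th percentile or higher on every array. The brightest gave 14.52 and 14.73 at E12 and 14.89 and 14.83 in Adult, a difference of 0.24 (adjusted p = 0.0381), and another gave 14.22 and 14.23 at E12, 14.73 and 14.66 at E18 and 14.65 and 14.54 in Adult. The third gave 13.87 and 13.50 at E12, 14.93 and 14.61 at E18 and 14.01 and 13.21 in Adult, so that it rose by 1.08 (adjusted p = 0.000507) and fell again by 1.16 (adjusted p = 0.000608). These probe sets cannot separate the gene copies, and signals this close to the highest value of the arrays have little room to rise.

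Adult beta globin rose before birth, while the embryonic genes fell. The probe set annotated to Hbb-bt, Hbb-bs, Hbb-b2 and Hbb-b1 together gave 13.88 and 13.91 at E12, 14.27 and 14.36 at E14 and 14.66 and 14.65 at E16, and it stayed between 14.58 and 14.75 from E18 onward. It rose by 0.42 (adjusted p = 0.0131) and 0.34 (adjusted p = 0.0119) at the first 2 steps, and the whole rise from E12 to E18 was 0.83 (SE 0.08, adjusted p = 1.25e-06). This probe set lay at the 99.8th percentile or higher on every array. The size of its rise and its level from E18 onward are thus limited by the range of the array. A dimmer probe set with Hbb-b2 as its only symbol rose from 5.98 at E12 to 8.69 at E16, and it fell from 8.31 at P10 to 7.56 in Adult (adjusted p = 0.0468). A second probe set of Hbb-b2 moved the other way (from 7.28 at E12 to 6.48 at E18, adjusted p = 3.07e-05), so the 2 probe sets of this gene disagree. The probe set of Hba-a2 alone fell by 0.71 (adjusted p = 0.00243) from E12 to E18.

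Alas2, the first enzyme of haem synthesis in red cell precursors, rose through the embryonic time points and fell after P10. Its values were 8.22 and 8.31 at E12, 8.77 and 9.27 at E14, 10.40 and 10.44 at E16, and 11.29 and 11.02 at E18, and they stayed between 10.90 and 11.22 at P2 and P10 before Adult gave 10.53 and 9.37. The 4 embryonic time points did not overlap, and both Adult arrays lay below E18, P2 and P10. The rise from E12 to E18 was 2.89 (7.42-fold, SE 0.27, adjusted p = 6.56e-07), and the step from E14 to E16 was 2.64-fold (adjusted p = 0.0031). The step from E12 to E14 (0.76, adjusted p = 0.184) passed only without either Adult array (adjusted p = 0.016). The step from E16 to E18 (1.67-fold, adjusted p = 0.0441) did not pass when any 1 array of E12, E16, E18, P2 or P10 was left out (adjusted p between 0.0557 and 0.213). From P10 to Adult it fell by 1.07 (2.10-fold, adjusted p = 0.00918), and this fall was 0.49 without replicate 2 of Adult (adjusted p = 0.0875) and did not pass without replicate 2 of P10 either (adjusted p = 0.0757). Adult lay 2.30-fold below E18 (adjusted p = 0.0033), 1.54-fold without replicate 2 of Adult (adjusted p = 0.0242) and 3.44-fold without replicate 1 (adjusted p = 1.49e-05). Alas2 and Gata1 are X-linked, and the part of the mix of sexes in their values was not tested.

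Slc4a1, the band 3 anion exchanger of the red cell membrane, passed at no step before birth and fell in Adult. It gave 7.98 and 8.16 at E12, 7.79 and 8.15 at E14, 8.58 and 8.56 at E16, 8.41 and 8.05 at E18, 8.80 and 8.87 at P2, and 8.37 and 8.97 at P10, and then 7.44 and 6.11 in Adult. The time points from E12 to E18 overlapped except that E16 lay highest, and both Adult arrays lay below all others. From E12 to E18 the difference was 0.16 (SE 0.31, adjusted p = 0.709), and it was -0.07 for the next brightest probe set and -0.02 without replicate 1 of E18. From P10 to Adult it fell by 1.90 (3.72-fold, SE 0.31, adjusted p = 0.000464). That fall was 2.35-fold (adjusted p = 0.00155) without replicate 2 of Adult and 5.89-fold (adjusted p = 4.88e-06) without replicate 1. The steps from E14 to E16 and from E18 to P2 (both 0.60) passed only without either Adult array (adjusted p = 0.0394 and 0.0419). A second probe set changed by -2.42 from P10 to Adult (adjusted p = 0.000953), and the dimmest probe set lay between 4.05 and 4.57 throughout.

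Alas2 and Slc4a1 moved apart although both are red cell genes and varied together between replicates. Relative to Slc4a1 on the same array, Alas2 rose by 2.73 from E12 to E18 (SE 0.12, adjusted p = 3.69e-10), by 0.86, 0.80 and 1.08 at the 3 steps. It fell by 0.57 from E18 to P2 (adjusted p = 0.00497) and rose by 0.83 from P10 to Adult (adjusted p = 0.000134). These 6 calls held without each array in turn. The SE of 0.12 was smaller than that of either gene alone (0.27 and 0.31), as replicates with a higher value of one gene had a higher value of the other at 6 of the 7 time points. This difference was added after the values had been seen.

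Epor, the erythropoietin receptor, rose by less than 1 on the log2 scale. Its values ran from 7.22 and 7.42 at E12 through 7.57 and 7.46 at E14, 7.90 and 7.85 at E16, 7.98 and 7.97 at E18, 7.94 and 8.13 at P2 and 8.27 and 8.16 at P10 to 8.23 and 8.16 in Adult. The arrays of E12 lay below and those of E16 above both E14 arrays, and from E18 onward the time points lay close together. Adult lay above E12 by 0.88 (1.84-fold, SE 0.10, adjusted p = 3.6e-06) and E18 above E12 by 0.66 (1.58-fold, adjusted p = 7.68e-05). The step from E14 to E16 (0.36, adjusted p = 0.0265) was lost without any 1 of its 4 arrays (adjusted p between 0.0644 and 0.165), and the Range of 0.90 kept Epor from being called dynamic.

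Klf1 and Gata1 stayed at low values throughout, with time-point means under 7. Klf1 ran from 6.18 to 6.79, with the lowest array in Adult and the highest at E18. It lay 0.32 higher at E18 than at E16 (adjusted p = 0.0349) and 0.34 lower in Adult than at E18 (adjusted p = 0.031). Both calls were lost without replicate 2 of E18 (adjusted p = 0.307 and 0.275), which stood 0.29 above replicate 1. The first was also lost without either E16 array (adjusted p = 0.109 and 0.106) and the second without replicate 2 of Adult (adjusted p = 0.251). The difference of 0.30 between E18 and E12 (adjusted p = 0.042) was lost without any 1 of the arrays of E12, E14 and E16 or replicate 2 of E18, and the fall from P10 to Adult (-0.28, adjusted p = 0.0838) passed only without replicate 1 of Adult (adjusted p = 0.0447). Gata1 ran from 5.84 on an E14 array to 6.51 on a P2 array. Adult lay above E12 by 0.32 (1.25-fold, adjusted p = 0.0237), a call lost without either E12 array or without replicate 2 of Adult (adjusted p between 0.0648 and 0.271). Each of these 2 genes had 1 probe set.

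**Figure D2:**
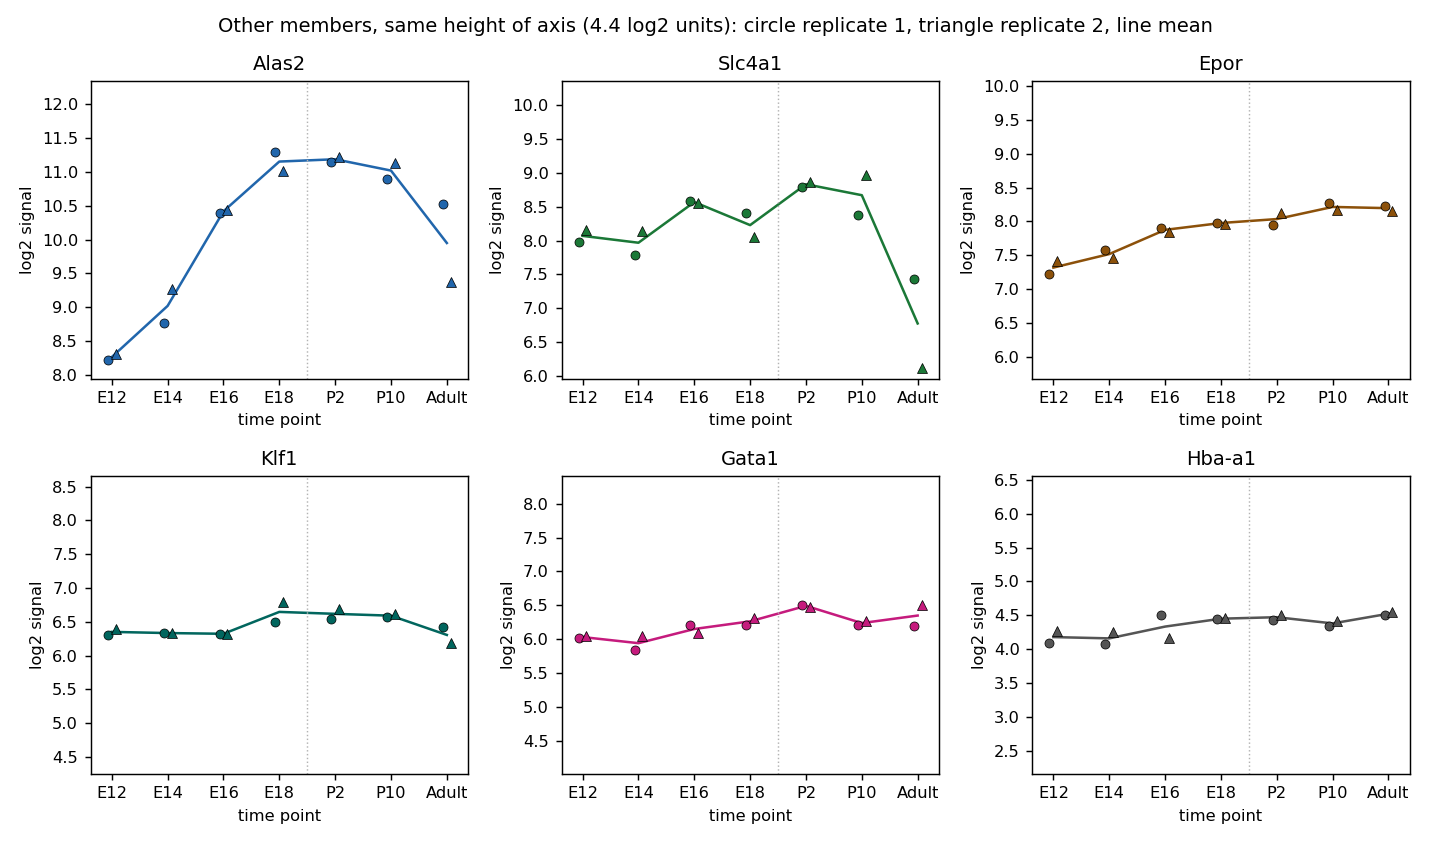
Expression values (log2 signal, vertical axis, each panel spanning 4.4 units) of Alas2, Slc4a1, Epor, Klf1, Gata1 and the Hba-a1 probe set of 1 symbol by time point, with 1 point for each array and a line through the means. Alas2 climbs to E18, Alas2 and Slc4a1 drop in Adult with the 2 Adult arrays far apart, and the other genes move by less than 1.

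The members that passed at each step were counted beside the share of all genes that passed. From E12 to E14 none rose and 2 fell (Hbb-bh1 and Hba-x), where 3.41% of all genes rose and 0.918% fell. From E14 to E16 Alas2 and Epor rose and the 3 embryonic globin genes fell, against 9.95% and 10.6% of all genes. From E16 to E18 Alas2 and Klf1 rose and the same 3 globin genes fell, against 24.8% and 21.6%, so that the 5 of 9 lie near the share of all genes. From E18 to P2 none rose and 2 fell (Hbb-y and Hba-x), against 8.58% and 10.0%. From P2 to P10 none passed in limma, against 4.82% of all genes higher and 4.37% lower, and 2 had an unadjusted p under 0.05 (Hbb-y and Gata1). From P10 to Adult none rose and 2 fell (Alas2 and Slc4a1), against 16.8% and 14.9%. The 5 members from E16 to E18 became 3 without either E16 array or replicate 2 of E18. The 2 at the first step became 1 without any array of E12 or E14, the 2 from E18 to P2 became 1 without any array of E12, E14, E18 or P2, and the 2 from P10 to Adult became 1 without replicate 2 of P10 or of Adult. From P2 to P10 the count was 1 without either E16 array or replicate 1 of P2.

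**Figure D3:**
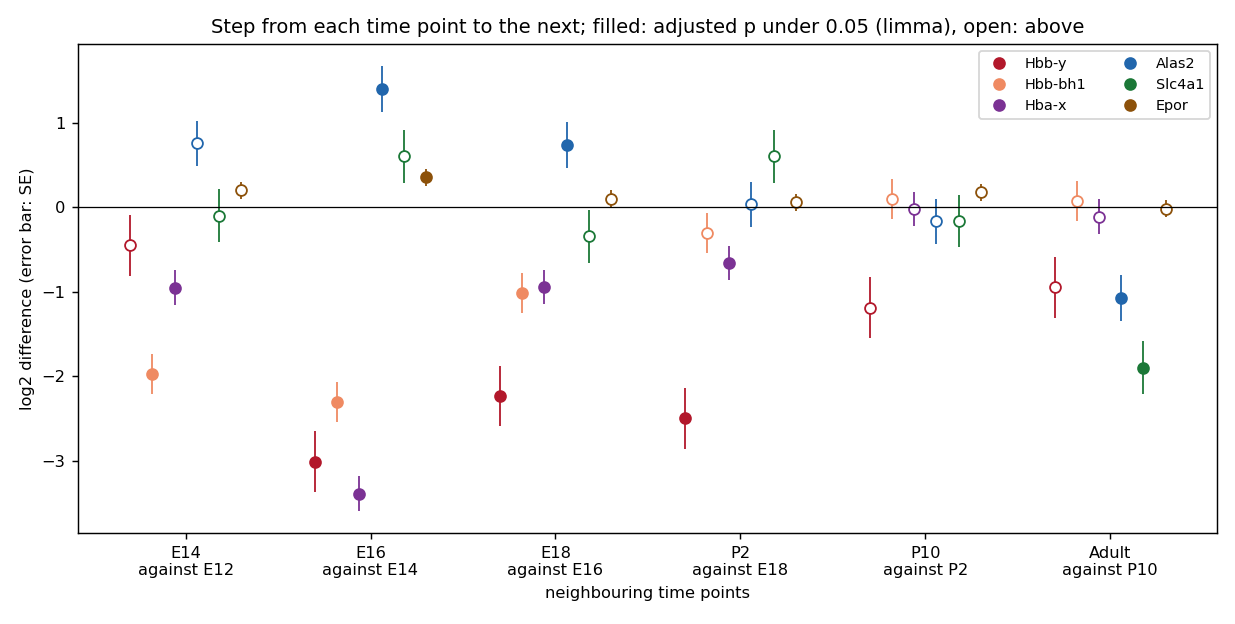
Difference in log2 signal (vertical axis, with its SE) between each time point and the one before it (horizontal axis) for 6 genes, filled where the adjusted p of limma was under 0.05. The embryonic globin genes have their largest falls from E14 to E16, except that Hbb-y keeps falling to P2, and Alas2 and Slc4a1 fall from P10 to Adult.

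Over longer spans, 3 of the 9 rose (Alas2, Epor and Klf1) and 3 fell from E12 to E18, against 29.5% and 27.3% of all genes. From E18 to Adult none rose and 5 fell (Hbb-y, Hba-x, Alas2, Slc4a1 and Klf1), against 19.2% and 20.0%, and the 5 became 3 without replicate 2 of E18 or replicate 2 of Adult. From E12 to Adult 4 rose (Hba-a1, Alas2, Epor and Gata1) and 4 fell (the embryonic globin genes and Slc4a1), against 35.0% and 30.2%. As given above, the calls of Hba-a1 and Gata1 over this span did not hold without each array, nor did that of Klf1 from E12 to E18. From E12 to Adult Hba-x fell by 6.07 (SE 0.21, adjusted p = 1.87e-11), Hbb-bh1 by 5.42 (SE 0.24, adjusted p = 1.94e-10), and Alas2 remained 3.22-fold higher (adjusted p = 8.9e-05).

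Whole lungs differ in how much blood they hold, and in such samples fewer red cells and less RNA in each red cell cannot be told apart. The mean of Alas2 and Slc4a1 on the same array was therefore subtracted, to ask whether a gene moved by another amount than these 2. Relative to that mean, Hbb-y changed by -7.21 from E12 to E18 (SE 0.40, adjusted p = 3.64e-09) and by a further -3.30 from E18 to Adult (adjusted p = 2.47e-05). For another probe set of Hbb-y, whose Adult values lay between 5.28 and 5.36, the latter was -0.61 and did not pass (adjusted p = 0.141 with the reference subtracted from every gene). Hbb-bh1 changed by -6.81 from E12 to E18 (SE 0.36, adjusted p = 2.4e-09) and by 1.2 from E18 to Adult (adjusted p = 0.019), the latter lost without replicate 1 of E18 or replicate 2 of Adult. Hba-x changed by -6.80 from E12 to E18 (SE 0.31, adjusted p = 7.39e-10) and by 0.54 from E18 to Adult (adjusted p = 0.214). The falls of the embryonic genes before birth were thus larger on this scale than on the signal itself, since the reference rose. From E12 to E18 the 2 reference genes themselves did not move alike, as Alas2 rose and Slc4a1 did not pass.

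On this scale 7 of 7 genes (all but the 2 references) lay lower at E18 than at E12, where 83.5% of all genes did and 3.05% lay higher. From E18 to Adult 6 of 7 passed, with Hbb-y lower and Hbb-bh1, Hba-a1, Epor, Klf1 and Gata1 higher, where 89.5% of all genes lay higher and 0.511% lower. Of these, Klf1 and Hbb-bh1 did not pass without replicate 1 of E18 (adjusted p = 0.123 and 0.172) or replicate 2 of Adult (0.141 and 0.184), nor Gata1 without replicate 1 of E18 (0.0504). From E12 to Adult the 3 embryonic globin genes passed, all lower, against 16.8% of all genes lower and 12.8% higher. The differences of Hba-a1 and Gata1 over this span turned sign with the Adult array left out. They were 0.79 and 0.90 without replicate 1 of Adult, and -0.50 and -0.65 without replicate 2. The shares over all genes show that the reference itself moved, upward to E18 and downward to Adult, and the counts of 7 of 7 and 6 of 7 are near these shares, so nothing is read from them. When the reference was subtracted from every gene, all genes received the same SE (0.40), and the shares of all genes come from that fit. Except where stated, the SE and adjusted p above come from adding each difference to the unscaled table. That alternative was chosen after the values had been seen, so the shares and these adjusted p rest on unlike fits.

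**Figure D4:**
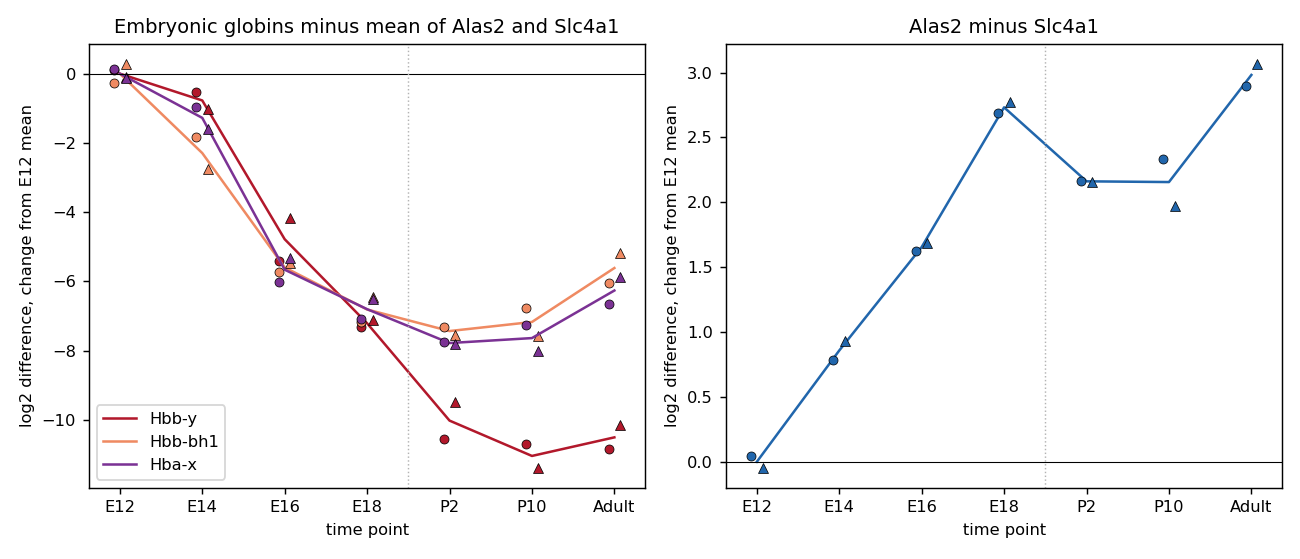
Left, the embryonic globin genes minus the mean of Alas2 and Slc4a1 on the same array, and right, Alas2 minus Slc4a1, each as the change from its E12 mean (log2, vertical axis) by time point, with 1 point for each array and a line through the means. The embryonic globin genes lie about 7 below their E12 mean at E18, and Alas2 lies 2.73 above Slc4a1 on this scale at E18.

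The Adult drop of Alas2 and Slc4a1 rests on 2 arrays that differed from each other. The mix of sexes also changed from E18 or P10 to Adult, as given above, so age and sex cannot be told apart in this drop. Replicate 1 of Adult lay above replicate 2 by 1.16 for Alas2, 1.32 for Slc4a1, 0.55 for Hbb-y, 0.47 for Hba-x, 0.40 for Hbb-bh1, 0.24 for Klf1 and 0.08 for Epor, and it lay lower for Gata1 (-0.31) and Hba-a1 (-0.05). Replicate 1 also lay higher for 4 of 4 measured red cell membrane genes and 6 of 6 red cell enzyme genes with Max above 7, for 9 of 14 haem genes and for 5 of 6 platelet genes. It lay higher for 5 of 13 erythroid transcription factors, 3 of 9 signalling genes, 4 of 11 leukocyte genes and 5585 of all 11663 genes with Max above 7. From E12 to Adult the fall of Slc4a1 was 1.29 with all arrays, 0.63 without replicate 2 of Adult and 1.96 without replicate 1, and the call held in each case (adjusted p between 6.55e-06 and 0.0282). The rise of Alas2 was 1.69 with all arrays and lay between 1.11 and 2.27 without 1 of them. At E16 replicate 1 lay below replicate 2 by 1.25 for Hbb-y and 0.70 for Hba-x, and by 0.04 for Alas2. Replicate 1 carried the Y-linked signal and more heart transcripts than replicate 2, and the part of neither in these differences was tested.

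Of 77 other genes of red cell biology, listed by role, 62 had a probe set with 1 symbol, and the other 15 were not analysed here. From E12 to E18 32 of the 62 lay higher and 8 lower, from E18 to Adult 15 lay higher and 15 lower, and from E12 to Adult 28 lay higher and 15 lower. Of all genes 29.5% lay higher and 27.3% lower over the first span, 19.2% and 20.0% over the second, and 35.0% and 30.2% over the third. The median difference from E12 to Adult was 0.14, against 0.08 over all genes.

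Among 14 genes of haem synthesis and iron uptake, 5 lay higher and 3 lower at E18 than at E12. These counts are near the shares of all genes (29.5% and 27.3%), so nothing is read from them. Fech, which inserts iron into the haem ring, rose from 10.00 to 11.37 (2.59-fold, SE 0.20, adjusted p = 5.26e-05), Slc25a37 (mitoferrin, the mitochondrial iron carrier) rose 1.90-fold, and Cpox and Alad, both enzymes of the pathway, rose 1.78-fold and 1.73-fold. Tfrc, the transferrin receptor that brings iron into dividing cells, fell from 11.19 to 9.81 (2.59-fold, adjusted p = 1.22e-08), and Abcb10 and Glrx5 fell 1.61-fold and 1.53-fold. From E18 to Adult 2 rose (Steap3 and Tfrc) and 6 fell, where 19.2% of all genes rose and 20.0% fell. Those that fell included Alad (1.93-fold), Cpox (1.74-fold), Fech (1.52-fold) and Slc25a37 (1.46-fold). These are the 4 genes that rose most to E18, but both spans use the same E18 arrays, so nothing is read from this. Ppox differed by 0.02 (SE 0.11, adjusted p = 0.907) from E12 to E18 and did not pass.

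Among 12 genes of the red cell membrane and skeleton, 4 had Max above 7. From E12 to Adult 3 of the 12 lay higher and 4 lower, near the shares of all genes (35.0% and 30.2%). Tmod1, a cap of actin filaments also made in muscle and other cells, rose from 6.43 to 9.88 (10.9-fold, adjusted p = 5.31e-08), and Dmtn rose 2.13-fold. Gypc, glycophorin C, fell 1.59-fold (adjusted p = 2.35e-05) and Kel fell 1.51-fold. Spectrin (Sptb) and ankyrin (Ank1), which anchor band 3, differed by 0.14 (adjusted p = 0.302) and 0.19 (adjusted p = 0.171).

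Among 10 red cell enzymes and genes of late maturation, 4 rose and 1 fell from E12 to E18, against 29.5% and 27.3% of all genes. From E18 to Adult 1 rose and 4 fell, against 19.2% and 20.0%. Car2, carbonic anhydrase 2, rose from 11.50 at E12 to 12.15 at E18 and 12.77 at P10 and lay at 10.96 in Adult, 2.27-fold below E18 (adjusted p = 5.72e-07). Blvrb, biliverdin reductase B, lay 2.04-fold lower in Adult than at E18 (adjusted p = 3.93e-05). Prdx2, an abundant peroxiredoxin of red cells that other cells also make, fell from 13.10 at E12 to 12.20 at E18 and 11.21 in Adult. Car1, an enzyme abundant in mature red cells, lay between 4.86 and 5.11 at all time points.

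All 15 listed erythroid transcription factors changed from E12 to Adult, 12 upward and 3 downward, over a span in which 35.0% of all genes rose and 30.2% fell. Gata2 rose from 6.64 to 10.17 (11.6-fold, SE 0.14, adjusted p = 5.95e-11), Ikzf1 5.86-fold, Cbfa2t3 5.67-fold and Myb 2.69-fold, the last with its highest mean of 9.17 at E16. Bcl11a, which represses embryonic globin genes in red cell precursors, fell 1.53-fold (adjusted p = 0.00438), Sox6, known for the same role, fell 1.51-fold (adjusted p = 0.000132), and Ldb1 fell 1.35-fold. Of 9 measured genes of erythropoietin and stem cell factor signalling 8 rose from E12 to Adult and none fell. Kit, the receptor of stem cell factor, rose 4.79-fold (adjusted p = 8.43e-10), its ligand Kitl 3.83-fold and Cish, a STAT5 target, 3.36-fold, whereas Tfr2 differed by 0.05 (adjusted p = 0.749).

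Many genes of these 2 lists are also made in endothelium and leukocytes, whose markers rose over the same span. All 12 leukocyte markers and all 8 endothelial markers lay higher in Adult than at E12, where 35.0% of all genes did. The median differences of these markers were 2.74 and 2.61. The mean over the 11 leukocyte genes with Max above 7 rose from between 7.03 and 7.07 at E12 to between 10.55 and 10.57 in Adult, and that over the 8 endothelial genes from between 8.87 and 8.92 to between 11.35 and 11.52. Of 10 platelet and megakaryocyte genes 8 lay higher in Adult and none lower. Their part in the differences of the transcription factors and signalling genes, and in the rise of Epor, was not tested.

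**Figure D5:**
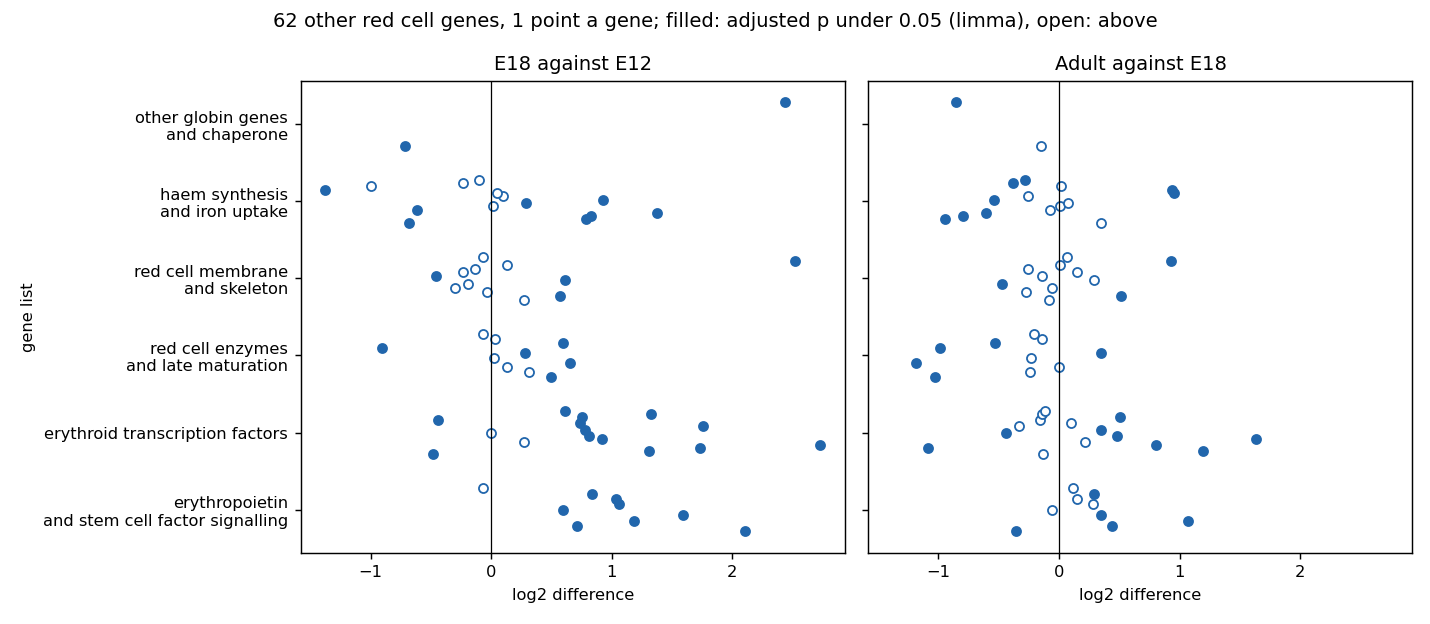
Log2 difference (horizontal axis) of each of 62 other red cell genes from E12 to E18 (left) and from E18 to Adult (right), in 6 lists (vertical axis), filled where the adjusted p of limma was under 0.05. Most transcription factor and signalling genes lie above 0 to E18, and the haem and enzyme lists spread to both sides of 0.

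The genes whose values followed each member most closely were ranked by Pearson r over the 14 arrays among 4869 to 4870 genes with Max above 7 and Range above 1.2, which describes a shared time course and carries no p. For Hbb-bh1 the 5 nearest included Hba-x (r = 0.982), after Crabp2 (r = 0.989). For Hbb-y they were Usp11 (r = 0.992), Prepl, Zcchc3, Uck2 and Asnsd1, and for Hba-x they were Dcx (r = 0.991), Gm266, Nat10, Col26a1 and Bcat1, none on a red cell list. For Alas2 the nearest was Fech (r = 0.976), ahead of Itgb6, Col6a3, Klf10 and Cd40. For Slc4a1 the nearest was Zfp979 (r = 0.924), and Car2 was the fifth (r = 0.842). For Epor they were Ctso (r = 0.972), Rgl3, Myl12b, Bik and Myct1. Among the members Hbb-y and Hba-x had r = 0.933, Hbb-bh1 and Alas2 had r = -0.90, and Alas2 and Slc4a1 had r = 0.47, where the 14 points share 7 time points and so are not independent.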

How the data were processed

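The deposited values were log2 signals, 1 per probe set and array. The authors made them with Partek 6.4, by RMA per their methods and by GCRMA per the submitters' processing notes, and which of the 2 applies was not settled. Both background-correct, quantile-normalize and summarize probes, which fixes the overall scale of every array. How far very low and very high signals are compressed in these values was not tested.

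Of 45101 probe sets, 64 controls were left out. Of the other 45037, 34945 carried 1 symbol in the platform annotation, 932 several and 9160 none, and genes were named only from the first kind, except for the globin probe sets named as shared. Each gene was read from its brightest probe set by the mean of all 14 arrays. One model with a mean for each time point was fitted with limma 3.58.1 in R 4.3.3 (7 residual degrees of freedom), and p-values were adjusted by Benjamini-Hochberg over all probe sets. SE are the moderated ones of limma. Percentages of all genes are over 18193 genes. With 2 arrays for each time point, their number limits the precision (median SD of the 2 arrays 0.0718 for genes with Max above 7). The code was tested on simulated differences.

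Named genes were the 9 members, then the members of the other lists with the largest differences among those past the threshold and a few that did not pass, and the 5 genes nearest to each dynamic member and Epor. Members and lists were chosen with earlier results of these data known. Alternatives were other scalings, a filter on Max, other probe sets, another prior, the replicate number as a block, other reference genes and leaving out each array. Replicate numbers did not pair the arrays.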

Additional observations from a re-analysis of the deposited data

How the results depend on the processing

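The 42 results were recomputed under 26 settings, which gave 849 values beside the main ones. Of the counts of members and of other red cell genes under alternatives, 281 stayed within 1.5 times the count reported and 34 did not. Of the differences of single genes, 501 kept direction and call, 21 no longer passed, 4 newly passed and 8 changed sign.

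The count of members that passed from E16 to E18 was 3 with each array centred on its median, that from E18 to P2 was 1 with the replicate block, that from P10 to Adult was 1 with a trended and robust prior, and that from P2 to P10 was 1 with the next brightest probe set. The count of dynamic members was 8 by adjusted p alone. Relative to Alas2 and Slc4a1, 4 members passed from E12 to E18 and 3 from E18 to Adult over probe sets with Max above 7 alone. With Alas2 alone as reference 7 passed from E12 to Adult, as did 7 with Slc4a1 alone, which gave 3 from E12 to E18. The cause of these changes was not tested.

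The difference of Slc4a1 from E12 to E18 was -0.0743 with the next brightest probe set and that of Hba-a1 from E18 to Adult -0.0428 with the probe set shared with Hba-a2. Leaving out 1 array at a time gave 1 to 3 members from E12 to E14, 3 to 5 from E16 to E18, 1 to 3 from E18 to P2, 0 to 1 from P2 to P10, 1 to 3 from P10 to Adult, 3 to 5 from E18 to Adult and, relative to the references, 3 to 6 from E12 to Adult. Over the spans from E12 to E18, from E18 to Adult and from E12 to Adult it turned the sign of 4 differences of members that had not passed: Gata1 from E18 to Adult (-0.0680 to 0.24), Hbb-bh1 from E18 to Adult (-0.33 to 0.0713), Klf1 from E12 to Adult (-0.17 to 0.0763) and Slc4a1 from E12 to E18 (-0.0168 to 0.33).

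Arrays of the same replicate number did not deviate together over the 21 pairs of time points (r from -0.18 to 0.077), so the replicate block is given here alone.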
